A study of Mus musculus with 12 samples.

Results

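XX female mouse thymus was compared with thymus of XY-sry males, which pair an XY sex chromosome complement with Sry, the testis-determining gene. The 6 arrays were chosen by their titles, 3 XX female and 3 XY-sry male, out of 12 arrays in the series. In these mice complement and Sry differ together, as in ordinary females and males, so this comparison alone cannot tell apart a difference that goes with the second X chromosome, one that goes with the Y chromosome and one that goes with Sry. Whole thymus had been taken from mice aged 7 to 8 weeks, with 3 biological replicates of each genotype. The other 6 arrays came from XXsry males (3) and XY- females (3), which pair the complement and Sry the other way round. The "XY-" of the labels is read here as an XY complement whose Y chromosome lacks Sry, and the labels do not say what drives Sry in the groups that carry it. The labels give no strain and no treatment.

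Sry starts testis development in the embryo, and the gonads then set the levels of androgens and oestrogens that reach the thymus. The thymus, where T cells mature and are selected on epithelial cells, is known to differ in size and cellularity between the sexes. In XX cells 1 X chromosome is silenced under the control of Xist RNA, and a small set of X-linked genes escapes that silencing; several of those genes have a partner on the Y chromosome.

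Values were log2 levels per probe set, and limma was run on the 17846 probe sets whose mean log2 reached 5 over the 6 arrays. The fit held all 12 arrays, so that the 4 groups shared 1 estimate of the spread. The number of arrays limits the precision: the median standard error of a difference was 0.077 on the log2 scale. Array medians lay between 4.02 and 4.10. The 3′ minus 5′ difference of the actin control probe sets, a sign of RNA quality, was 0.66 to 0.77 on the XX female arrays and 0.74 to 0.83 on the XY-sry male arrays, ranges that overlap. XY- female replicate 2 stood apart, with a mean absolute deviation of 0.179 from its replicates against 0.078 to 0.139 on the other arrays. That array is in neither group compared, and it bears on the test through the shared estimate of the spread; the sources used here do not say whether the 12 arrays were normalized together. Genes that define cortical double-positive thymocytes were near the top of the range in both groups. Rag1, which cuts antigen receptor genes, read 11.83, 11.85 and 11.94 in XX females and 11.96, 11.86 and 11.80 in XY-sry males. It differed by 0.00 (adjusted p = 1), and the chromatin organizer Satb1 by 0.02 (adjusted p = 0.877).

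XX female thymus differed from XY-sry male thymus in 267 probe sets, 1.5% of those tested, at a Benjamini-Hochberg adjusted p under 0.05 in limma. Of these, 148 (0.829%) were higher and 119 (0.667%) lower in XX females, and they named 193 genes, 110 higher and 83 lower. Chemokine receptors of activated and innate-like T cells, interferon-responsive chemokines and plasma cell genes were among those higher in XX females. Igfbp5, an insulin-like growth factor binding protein, and 4 of 18 measured genes listed for cortical epithelium were among those lower. The median size of a called difference was 0.48 on the log2 scale. In all, 85 called differences were at least 1.5-fold and 20 were at least 1 on the log2 scale. On all 267 the 3 XX female arrays lay entirely above or entirely below the 3 XY-sry male arrays, which held for 23.9% of all probe sets tested. Where a called gene is said below not to overlap between these groups, this adds nothing to the call. The count moved with single arrays. Leaving out XX female replicate 1, 2 or 3 gave 84, 72 or 111 calls, leaving out XY-sry male replicate 1 or 3 gave 106 or 86, and leaving out XXsry male replicate 3 gave 165. With XY- female replicate 2 left out there were 633 calls, and all 267 were among them.

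The XXsry male arrays and the XY- female arrays share no array with this comparison, and there the complement keeps its order while Sry is on the other side. XXsry male minus XY- female thymus gave 178 called probe sets (0.997%), 125 higher and 53 lower. Both comparisons called 88 probe sets, 33% of the 267 and 49.4% of the 178. In 15 of these the sign was the same in both, and in 73 it was opposite. The 15 were 12 probe sets of the genes Xist, Eif2s3x, Kdm6a, Kdm5c, Pbdc1 and Eif2s3y, and 3 probe sets with no gene name. The 73 named 56 genes, with 32 of the probe sets higher and 41 lower in XX females. Of all 267, called or not in the other mice, 248 (92.9%) had the opposite sign there, against 68.2% of all probe sets tested. The number with opposite signs was 31 to 47 when 1 of these arrays was left out: any XX female, XY-sry male 1 or 3, XXsry male 2 or 3, or XY- female 1. The 2 comparisons share the estimate of the spread and may share normalization. With the 6 arrays of XXsry males and XY- females alone, the 178 were 32.

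**Figure D1:**
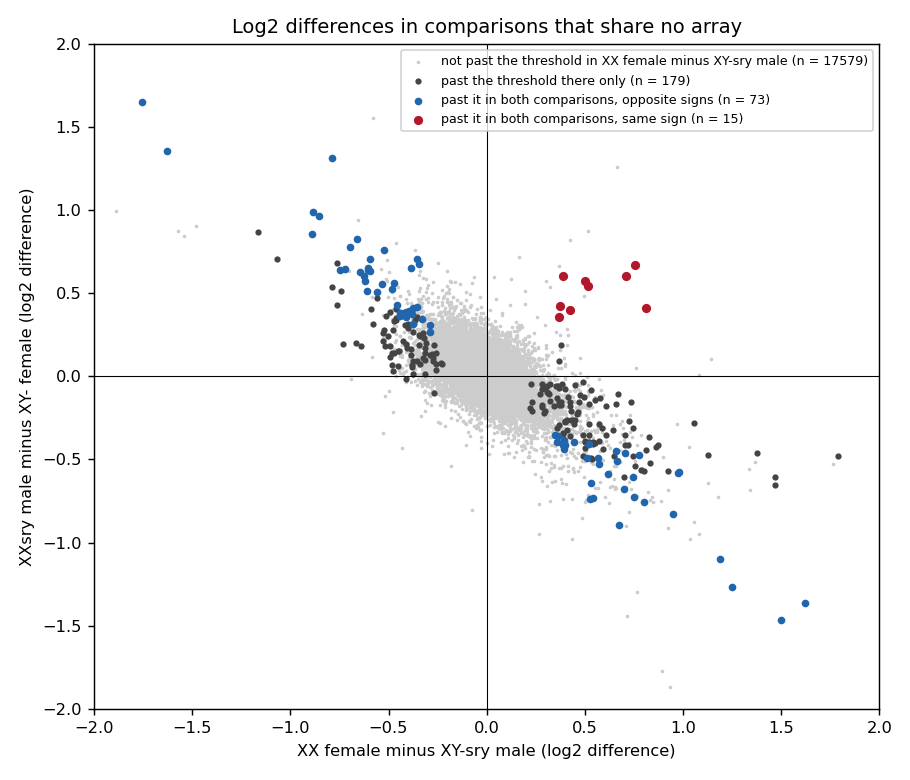
Each point is a probe set tested. The x axis is the log2 difference XX female minus XY-sry male and the y axis the log2 difference XXsry male minus XY- female, 3 arrays in each group. Black points were called in the first comparison only, blue points in both with opposite signs, red points in both with the same sign, and grey points were not called in the first. Most called points lie in the quadrants where the 2 differences have opposite signs (248 of 267), and 6 called probe sets lie beyond the axes, which end at 2 on either side.

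The share of probe sets called varied by chromosome, and whether it differed beyond chance was not tested. Among single autosomes it ran from 0.79% on chromosome 2 to 2.83% on chromosome 1. Of 15237 autosomal probe sets 213 were called (1.4%), 119 higher and 94 lower. In 211 of these 213 the difference had the opposite sign in XXsry male minus XY- female thymus. The other 2 belonged to Slc38a2, an amino acid transporter (-0.27 here and -0.10 there), and Fgr, a kinase of myeloid cells (0.37 here and 0.09 there), 2 genes singled out after their values were seen. No autosomal probe set was called with the same sign in both comparisons by limma, out of 63 called in both, and with array weights 5 were. The unadjusted limma p was under 0.05 for 2402 autosomal probe sets, and 5% of the 15237 tested is 761.9. Of 458 X-linked probe sets 14 were called (3.06%), all higher in XX females, and 12 of the 14 kept their sign in the other mice. The median difference was 0.0033 over X-linked and -0.0100 over autosomal probe sets.

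Xist, at chrX:103460373-103483233 in GRCm38.p6, checked the genotype labels. Its probe set 1427262_at read 7.60, 7.77 and 7.42 on the XX female arrays, against 2.64, 2.62 and 2.55 on the XY-sry male arrays. The XY-sry values are close to the lowest on these arrays, so the difference was at least 4.99 on the log2 scale (standard error 0.092; limma adjusted p = 1.52e-11). XXsry males were at 7.83, 8.02 and 8.07 and XY- females at 2.55, 2.68 and 2.76. Xist thus followed the complement label on all 12 arrays. The Y-linked gene Eif2s3y, which encodes the Y copy of a translation initiation factor subunit, read 2.21, 2.28 and 2.0 in XX females, against 8.17, 7.95 and 7.83 in XY-sry males. It was lower in XX females by at least 5.82 (the fitted value is -5.82; adjusted p = 4.55e-08) and did not overlap between the groups.

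Its X-linked partner Eif2s3x was higher in XX females at all 3 of its called probe sets. With probe set 1421895_at it read 8.60, 8.57 and 8.55 in XX females, against 7.84, 7.93 and 7.82 in XY-sry males, a difference of 0.71 ± 0.053 (standard error; limma adjusted p = 3.78e-05). XXsry males exceeded XY- females by 0.61. Kdm6a, a demethylase that removes the repressive Polycomb mark from histone H3, read 7.87, 7.80 and 7.88 in XX females, against 7.16, 6.97 and 6.99 in XY-sry males. Its difference was 0.81 ± 0.067 (adjusted p = 8.85e-05), and 0.41 (adjusted p = 0.0142) in XXsry males over XY- females. On all 12 arrays its level was higher in mice labelled XX than in mice labelled XY. Kdm5c, a demethylase that acts on a mark of active promoters, was higher by 0.37 ± 0.069 with probe set 1444157_a_at (adjusted p = 0.0253), which passed in 16 of 23 alternatives, and by 0.39 with 1435348_at (adjusted p = 0.0115). Pbdc1 differed by 0.37 ± 0.069 (adjusted p = 0.0244) and by 0.42 in the other mice.

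Not every X-linked gene with a Y partner moved. Ddx3x, an RNA helicase, differed by -0.10 (adjusted p = 0.515), the deubiquitinase Usp9x by -0.03 (adjusted p = 0.882) and the transcription factor Zfx by -0.03 (adjusted p = 0.809). The list of X and Y partner genes also holds Xist, which has no Y partner. The list had 9 measured members, of which 4 rose (Xist, Eif2s3x, Kdm6a and Kdm5c) and 2 fell (Eif2s3y and Sry) in XX females. The wider list of genes known to escape X inactivation had 14, of which 4 rose (Eif2s3x, Kdm6a, Kdm5c and Pbdc1), and the median was 0.122, beside -0.013 over the 9495 genes tested with 1 probe set each. Over those 9495 genes 86 rose (0.906%) and 62 fell (0.653%), 1.56% in either direction. The count of escape genes was 2 with XX female replicate 1 left out and 6 with XY- female replicate 2 left out. Kdm5d and Uty, the Y copies of Kdm5c and Kdm6a, were below the filter on low values. Kdm5d read 1.84, 1.94 and 2.11 in XX females, against 6.87, 6.72 and 6.62 in XY-sry males. Uty read 2.64, 2.77 and 2.73 in XX females, against 5.57, 5.17 and 5.62 in XY-sry males. Both lay apart in the 2 groups. The 3 unnamed probe sets, singled out after their values were seen, had differences of -6.68 (1426438_at), -5.53 (1452077_at) and -4.73 (1426439_at), also bounds on size.

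Sry itself read 5.33, 5.39 and 5.34 in XX females, against 6.90, 6.84 and 7.20 in XY-sry males. It was lower in XX females by at least 1.63 (fitted value -1.63 ± 0.113; limma adjusted p = 1.97e-05). XXsry males were at 6.95, 6.74 and 6.81 and XY- females at 5.23, 5.55 and 5.65, so the level followed the Sry label on all 12 arrays. Mice labelled without Sry still read above 5 on this probe set, so on some probe sets a value near 5 need not be transcript. Another Sry probe set, below the filter on low values, averaged 2.35 in XX females and 2.33 in XY- females. It averaged 3.41 in XY-sry males and 3.56 in XXsry males. The reading without Sry thus differed between probe sets, and the reading without transcript was not measured for the genes named next. A difference in which 1 group reads near or under 5 may be only a lower bound on its size. Such genes were Cxcr6, Cxcr3, Klrd1, Cd44, Abca8a, Kcnk2, Isl1, Ltbp3, Chga and Nfib.

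**Figure D2:**
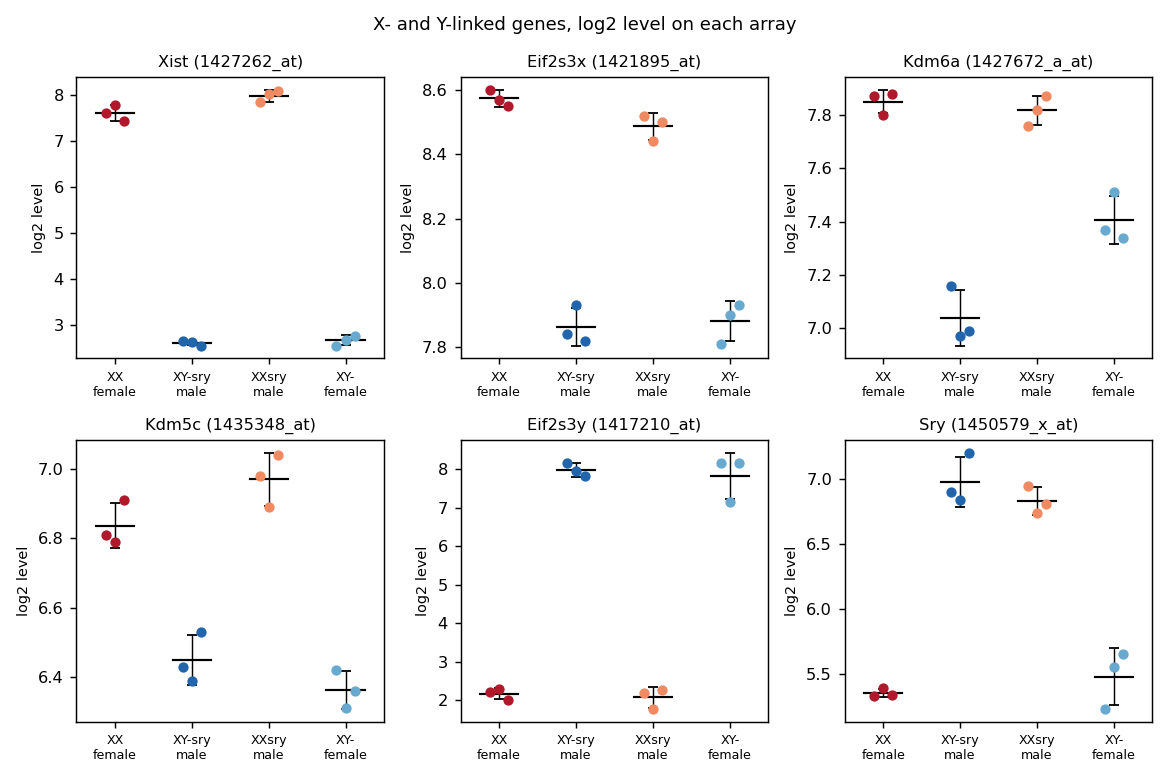
Log2 level on each array (y axis) for 6 X- and Y-linked genes in the 4 groups (x axis), with points for arrays, a line for the mean and bars for the SD of 3 arrays. Xist, Eif2s3x, Kdm6a and Kdm5c are high in both XX groups, Eif2s3y in both XY groups, and Sry in both groups labelled with Sry.

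X-linked Cxcr3 and Bex1 were the exceptions among the 14 X-linked probe sets called. Cxcr3, at chrX:101731535-101734147, is the receptor for interferon-induced chemokines on activated T cells. It read 6.07, 6.20 and 5.89 in XX females, against 4.97, 4.92 and 4.71 in XY-sry males, a difference of at least 1.19 (standard error 0.111; limma adjusted p = 0.000253). XXsry males read 5.14, 4.75 and 4.78, against 5.98, 5.93 and 6.06 in XY- females, so there the difference was -1.10. Bex1 read 7.55, 7.74 and 7.74 in XX females, against 6.39, 6.40 and 6.11 in XY-sry males, a difference of 1.38 ± 0.169 (adjusted p = 0.00194). In XXsry males over XY- females Bex1 differed by -0.46, which did not pass (adjusted p = 0.233).

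Genes of innate-like T and natural killer cells were among those higher in XX females. In this and the other list counts each gene stands by its probe set of highest mean, so a gene called by another probe set only is not counted. Of 10 measured genes in that list 7 rose and none fell, and the median was 0.745. Over all genes tested 0.906% rose and 0.653% fell, and the median was -0.013. The list has 18 genes on the array, and the filter used the mean over these same 6 arrays. Cxcr6, Cxcr3 and Klrd1 averaged 4.74, 4.87 and 4.68 in XY-sry males, so they passed the filter through their level in XX females. Without the filter the list median was 0.570. Cxcr6, at chr9:123806477-123811754, a chemokine receptor of natural killer T and other tissue-resident lymphocytes, read 6.25, 6.40 and 6.44 in XX females, against 4.72, 4.52 and 4.99 in XY-sry males. It was at least 3.07-fold higher in XX females (log2 difference at least 1.62, standard error 0.140; limma adjusted p = 0.000125), with no overlap. XXsry males read 5.15, 4.66 and 4.97, against 6.33, 6.10 and 6.44 in XY- females.

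Icos, a costimulatory receptor of activated T cells, read 8.08, 8.05 and 7.99 in XX females, against 7.12, 7.06 and 7.01 in XY-sry males. It was higher by 0.98 ± 0.093 (limma adjusted p = 0.000264), and in XXsry males over XY- females the difference was -0.58. Id2, an inhibitor of E protein transcription factors that innate lymphocytes need, read 8.03, 7.97 and 7.99 in XX females, against 7.38, 7.25 and 7.37 in XY-sry males. Its difference was 0.66 ± 0.062 (adjusted p = 0.000246). Nkg7, a granule protein of cytotoxic cells, was higher by 0.74 ± 0.090 (adjusted p = 0.00186). Klrd1, a receptor subunit of natural killer cells, and Il2rb, a subunit of receptors for lymphocyte growth cytokines, completed the 7 and were named because the count is given; they were higher by at least 1.25 and by 0.39 (adjusted p = 0.0216 and 0.0354). Not past the threshold were Ccl5 at 0.49 (adjusted p = 0.0637), Fcer1g at 0.31 and Gzma at -0.21. The mean level over the list was 7.24 to 7.29 on the XX female arrays, against 6.48 to 6.56 on the XY-sry male arrays. The count was 5 to 8 when each of the 12 arrays was left out in turn. In bulk thymus, more cells of a type and more RNA per cell cannot be told apart.

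The list of mature thymocytes had a smaller median. Of 23 measured genes of mature single-positive thymocytes 4 rose and none fell, with a median of 0.240. Over all genes tested 0.906% rose and 0.653% fell. Ms4a4b, a membrane protein of mature T cells, read 9.55, 9.42 and 9.43 in XX females, against 8.84, 8.84 and 8.61 in XY-sry males (0.70 ± 0.093; limma adjusted p = 0.00391). The groups did not overlap. Slfn1, a schlafen family member of quiescent T cells, was higher by 0.75 (adjusted p = 0.0151). Il7r, the receptor for a survival cytokine of T cells, was higher by 0.54 (adjusted p = 0.0434) and passed in 12 of 24 alternatives. By any probe set 3 more genes of the list were called, Cd44 and Ms4a6b (0.52; adjusted p = 0.0127) higher and the survival gene Bcl2 (-0.52; adjusted p = 0.0285) lower. The list count was 2 to 10 when 1 array was left out, lowest on leaving out XX female replicate 1 and highest on leaving out XY- female replicate 2. Of 12 measured regulatory T cell genes 3 rose: Icos, the folate receptor relative Izumo1r (0.61, adjusted p = 0.0177) and the integrin Itgae (0.51, adjusted p = 0.0304). Their median was 0.132, and the count was 1 to 5 when 1 array was left out, lowest and highest on leaving out XX female replicate 1 and XY- female replicate 3.

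Double-positive thymocytes are the bulk of the organ. None of 19 measured genes was called and the median was 0.007. None of 12 double-negative thymocyte genes was called either by the probe set of highest mean, also with a median of 0.007; by any probe set 1 was, Cd44. Other genes with small p in this direction were Ttc39a, with 6.52, 6.50 and 6.48 in XX females, against 5.65, 5.70 and 5.83 in XY-sry males (0.77 ± 0.065; limma adjusted p = 0.000102), and Cd7, a T and natural killer cell surface protein (0.53; adjusted p = 0.0019). Cd44, an adhesion receptor of activated and memory T cells, read 5.87, 6.05 and 5.79 in XX females, against 4.91, 5.03 and 5.18 in XY-sry males, with probe set 1452483_a_at (0.86 ± 0.098; adjusted p = 0.00117). Probe set 1423760_at also rose (0.75; adjusted p = 0.00562), while 1434376_at gave 0.43 and did not pass (adjusted p = 0.0514).

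**Figure D3:**
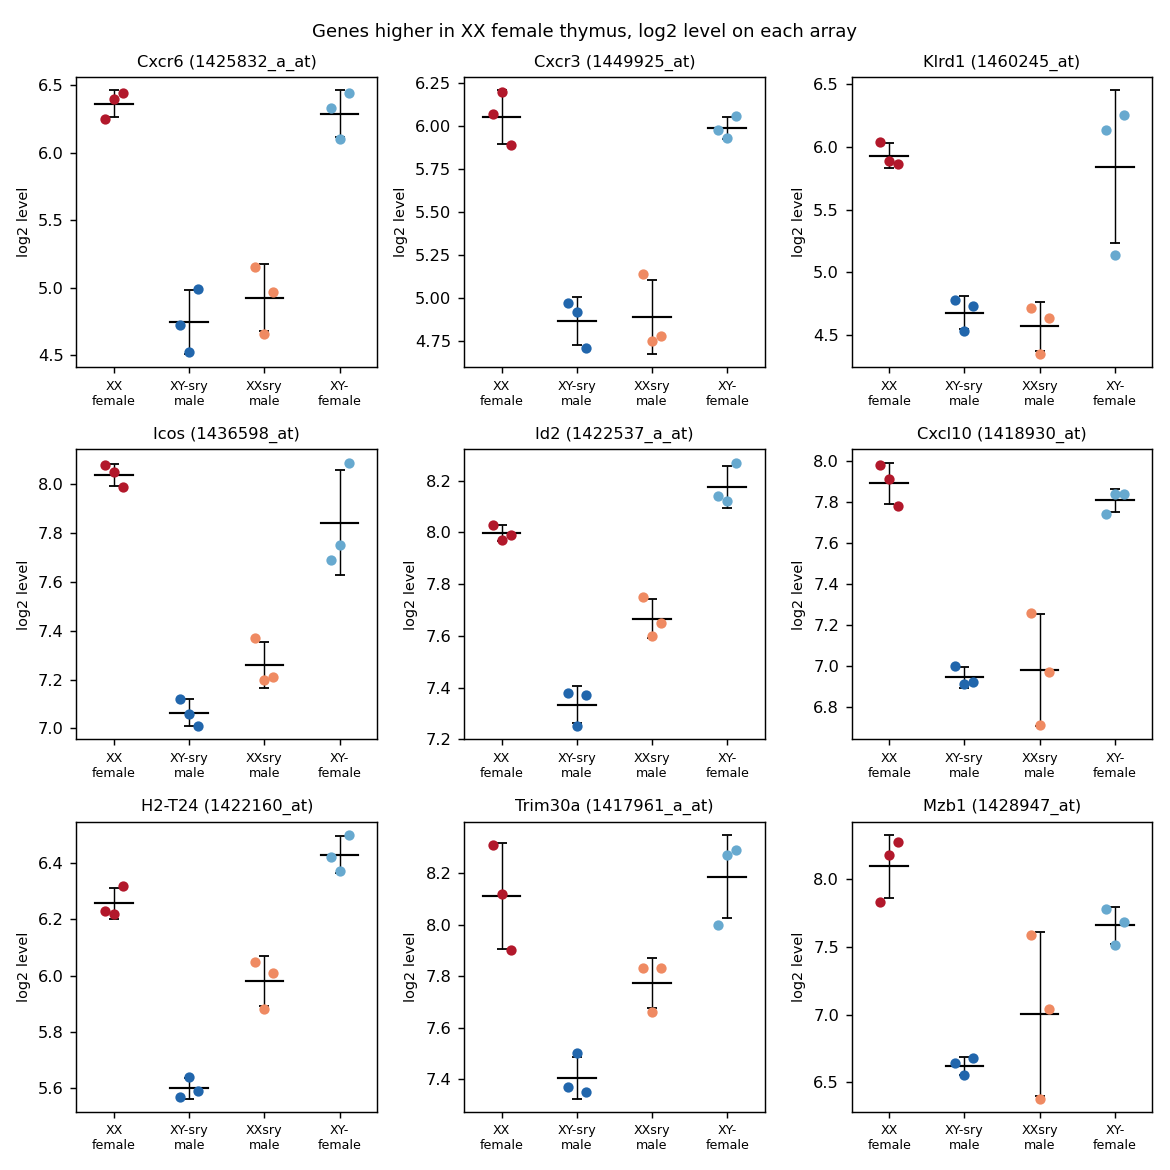
Log2 level on each array (y axis) for genes higher in XX female thymus, in the 4 groups (x axis), with points for arrays, a line for the mean and bars for the SD of 3 arrays. For Cxcr6, Cxcr3 and Icos the XX female arrays lie above all XY-sry male arrays.

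Of 39 measured interferon-responsive genes 6 rose and none fell, 36 had a positive difference, and the median was 0.280, beside -0.013 over all genes tested. Of all genes tested 0.906% rose and 44.3% had a positive difference. Cxcl10, an interferon-induced ligand of Cxcr3, read 7.98, 7.91 and 7.78 in XX females, against 7.00, 6.91 and 6.92 in XY-sry males. The difference was 0.95 ± 0.110 (limma adjusted p = 0.00131), and XXsry male minus XY- female was -0.83. Cxcl9, another Cxcr3 ligand, was higher by 0.92 ± 0.177 (adjusted p = 0.0279) and passed in 18 of 24 alternatives. Trim30a, an interferon-induced ubiquitin ligase family member, read 8.31, 8.12 and 7.90 in XX females, against 7.37, 7.50 and 7.35 in XY-sry males (0.70 ± 0.106; adjusted p = 0.00863). None of these 3 genes overlapped between the groups, which held for all 267 called probe sets and for 23.9% of all those tested. Gbp2, an interferon-induced guanylate-binding protein, was higher by 0.36 (adjusted p = 0.0417), and passed in 14 of 24 alternatives. The other 2, named because the count is given, were Rtp4 (0.52; adjusted p = 0.0439) and Bst2 (0.30; adjusted p = 0.0438), a membrane protein that tethers enveloped viruses. Ifit1 at 0.38, Irf7 at 0.40 and Usp18 at 0.40 did not pass (0.107, 0.0949 and 0.0751 after adjustment), and Zbp1 passed at another probe set only (0.50; adjusted p = 0.045). Leaving out XX female replicate 1 gave a list count of 2, and leaving out XY- female replicate 2 gave 9.

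Promoter sequences are shown for 4 of the 6, because they hold the letters of an interferon-stimulated response element, GAAA, 2 bases of any kind and GAAA again, searched on both strands. Each runs 5′ to 3′ over the RefSeq window (GRCm38.p6) around a start site, most of it upstream, and capitals mark the matched letters or their reverse complement:
Cxcl10, chr5:92348840-92349139, minus strand: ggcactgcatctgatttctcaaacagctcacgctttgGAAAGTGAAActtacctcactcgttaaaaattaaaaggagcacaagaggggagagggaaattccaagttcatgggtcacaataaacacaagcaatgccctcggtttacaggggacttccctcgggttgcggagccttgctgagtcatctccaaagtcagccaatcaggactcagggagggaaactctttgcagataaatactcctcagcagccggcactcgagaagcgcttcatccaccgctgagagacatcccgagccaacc
Gbp2, chr3:142620413-142620712, plus strand: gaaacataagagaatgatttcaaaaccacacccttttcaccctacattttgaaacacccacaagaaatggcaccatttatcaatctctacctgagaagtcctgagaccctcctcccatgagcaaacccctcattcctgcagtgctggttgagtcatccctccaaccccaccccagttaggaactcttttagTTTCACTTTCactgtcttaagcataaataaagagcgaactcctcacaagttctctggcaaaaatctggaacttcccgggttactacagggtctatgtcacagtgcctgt
Trim30a, chr7:104465144-104465443, minus strand: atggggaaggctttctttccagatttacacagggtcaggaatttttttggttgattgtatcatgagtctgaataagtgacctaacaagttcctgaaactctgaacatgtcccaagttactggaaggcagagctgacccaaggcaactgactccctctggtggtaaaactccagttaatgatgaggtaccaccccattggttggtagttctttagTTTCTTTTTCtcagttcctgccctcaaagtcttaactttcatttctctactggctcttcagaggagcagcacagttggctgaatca
Bst2, chr8:71537423-71537722, minus strand: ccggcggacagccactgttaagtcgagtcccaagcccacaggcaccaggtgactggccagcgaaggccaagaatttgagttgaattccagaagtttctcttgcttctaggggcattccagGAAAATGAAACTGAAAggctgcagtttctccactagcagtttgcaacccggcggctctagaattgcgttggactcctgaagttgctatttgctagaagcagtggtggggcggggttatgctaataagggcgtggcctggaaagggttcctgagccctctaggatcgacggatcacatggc
The Bst2 promoter holds 2 overlapping matches. Trim30a has a second RefSeq promoter with a match, not printed. A promoter was found for 5 of the 7 interferon genes called by any probe set, and 4 of those 5 hold the letters. Over the whole list 17 of 32 genes with a promoter hold them (53.1%), against 296 of 7769 genes tested (3.81%) and 1131 of all 32851 promoters of this length (3.44%). Among genes called higher in XX females 13 of 75 hold them (17.3%), and among genes called lower 1 of 63 (1.59%). A second motif, the gamma-activated site (TTC and GAA with 3 bases between), was in 6 of 75 genes called higher (8%), 3 of 63 called lower (4.76%) and 630 of 7769 tested (8.11%). A consensus steroid receptor element (AGAACA and TGTTCT with 3 bases between) was in none of the 75 or the 63 and in 1 of 7769 tested. These matches describe letters in a window and were not tested.

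Genes of antigen presentation were measured for both MHC classes. Of 16 measured MHC class I genes 3 rose and none fell, with a median of 0.135, where 0.906% of all genes tested rose and 0.653% fell. H2-T24, a non-classical class I gene, read 6.23, 6.22 and 6.32 in XX females, against 5.57, 5.64 and 5.59 in XY-sry males (0.66 ± 0.060; limma adjusted p = 0.000209). Nlrc5, a transactivator of class I genes, was higher by 0.52 (adjusted p = 0.0216). Tapbp, which loads peptide onto class I molecules, was higher by 0.23 (adjusted p = 0.0496) and passed in 8 of 24 alternatives. Leaving out XX female replicate 1 gave a class I count of 1. None of the 12 measured MHC class II genes was called, including Cd74, the invariant chain, at 0.03 (adjusted p = 0.848). The median over class II was 0.113.

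B cell and plasma cell genes had a positive difference in all 13 measured members, of which 4 rose, with a median of 0.487. Mzb1, a chaperone of immunoglobulin in marginal zone B and plasma cells, read 7.83, 8.18 and 8.27 in XX females, against 6.64, 6.55 and 6.68 in XY-sry males. The difference was 1.47 ± 0.228 (limma adjusted p = 0.0103), and the 2 ranges were more than 1 log2 unit apart. In XXsry males Mzb1 read 7.59, 6.38 and 7.04, against 7.78, 7.51 and 7.68 in XY- females. There the difference of -0.65 did not pass (adjusted p = 0.211) and the groups overlapped. Pou2af1, a B cell transcriptional coactivator, read 6.51, 6.75 and 6.55 in XX females, against 5.64, 5.17 and 5.62 in XY-sry males (1.13 ± 0.154; adjusted p = 0.00495). The immunoglobulin genes Ighm, the mu heavy chain, and Jchain, which joins its polymers, were higher by 0.71 and 0.73 (adjusted p = 0.0417 and 0.0426) and passed in 11 and 13 of 24 alternatives. The B cell surface protein gene Ms4a1 was at 0.76 and did not pass (adjusted p = 0.0571). Leaving out XX female replicate 2 gave a count of 2 for the list, and leaving out XY- female replicate 2 gave 7. The thymus holds its own B cells, and lymph nodes lie close to it. Of the lymph node list only Ltb was measured, at 0.15 (adjusted p = 0.324), so a part of adhering lymph node in these differences was not tested.

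Among the genes lower in XX females, Igfbp5 had the largest difference outside the Y chromosome and unnamed probe sets. It lies at chr1:72858065-72874865 and binds insulin-like growth factors outside the cell. Probe set 1452114_s_at read 7.43, 7.38 and 7.49 in XX females, against 9.32, 8.91 and 9.34 in XY-sry males. Igfbp5 was 3.38-fold lower in XX females (log2 difference -1.76 ± 0.135; limma adjusted p = 4.9e-05), with no overlap. The XXsry male arrays read 9.44, 9.22 and 9.24, against 7.64, 7.39 and 7.92 on the XY- female arrays. No other of 9 measured genes of the insulin-like growth factor axis was called, and the median was -0.063.

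Kcnk2, at chr1:189207930-189402782, encodes a potassium leak channel. It read 5.33, 5.41 and 5.33 in XX females, against 6.34, 6.18 and 6.11 in XY-sry males (-0.85 ± 0.092; limma adjusted p = 0.000867). It was the only one of 6 measured genes called in the potassium channel list; Kcnq3, a voltage-gated channel outside the list, was singled out after its values were seen and differed by -0.79. In XXsry males Kcnk2 read 6.49, 6.29 and 6.27, against 5.51, 5.19 and 5.45 in XY- females.

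Cortical epithelial cells carry Notch ligands and the chemokines that guide early thymocytes. Of 18 measured genes listed for this cell type 4 fell in XX females and none rose, and the median was -0.185. Over all genes tested 0.653% fell, and the median was -0.013. Fgfr2, a receptor for fibroblast growth factors that thymic epithelium needs to grow, read 6.52, 6.41 and 6.27 in XX females, against 7.10, 6.99 and 6.99 in XY-sry males. The log2 difference was -0.63 ± 0.073 (limma adjusted p = 0.00131). Slc46a2, a solute carrier of thymic stroma, read 7.48, 7.73 and 7.57 in XX females, against 8.29, 8.08 and 8.50 in XY-sry males (-0.70 ± 0.102; adjusted p = 0.00736). For both genes every XX female array lay below every XY-sry male array. Trp63, a transcription factor of epithelial progenitors, read 7.01, 6.82 and 6.88 in XX females, against 7.66, 7.29 and 7.54 in XY-sry males (-0.59 ± 0.095; adjusted p = 0.012). Isl1, a LIM homeodomain transcription factor, differed by -0.62 with probe set 1422720_at and by -0.75 with 1450723_at (adjusted p = 0.000935 and 0.0114). All 4 genes were higher in XXsry males than in XY- females.

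Other cortical genes did not pass. Foxn1, the master regulator of thymic epithelium, was at -0.22 (adjusted p = 0.261), Dll4, the Notch ligand, at -0.23 (adjusted p = 0.166), and Psmb11, a subunit of the thymus-specific proteasome, at 0.02 (adjusted p = 0.938). The cortical count was 2 with XX female replicate 2 left out and 5 with XY- female replicate 2 left out. None of 12 measured medullary epithelium genes was called, with a median of 0.168, and none of 5 tissue-restricted antigens.

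Genes of extracellular matrix and growth factor storage were also among those lower. Ltbp3, which anchors latent TGF-beta in the matrix, read 5.54, 5.53 and 5.29 in XX females, against 6.13, 6.07 and 6.09 in XY-sry males (-0.64 ± 0.075; limma adjusted p = 0.00131). Tgfbr3, a TGF-beta co-receptor, was at -0.29 (adjusted p = 0.0484) and passed in 10 of 24 alternatives. They were the only 2 of 16 measured TGF-beta and matrix protease genes that fell, with none higher and a median of 0.023. Of 12 fibroblast genes 2 fell, the matrix proteins Fn1 (-0.52; adjusted p = 0.0244) and Dcn (-0.46; adjusted p = 0.0415), with a median of 0.000. That count was 0 without XX female replicate 1, and at most 2 whichever of the 12 arrays was left out.

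Nqo1, a quinone reductase of the antioxidant response, read 5.75, 5.64 and 5.48 in XX females, against 6.54, 6.47 and 6.53 in XY-sry males. Its log2 difference was -0.89 ± 0.103 (limma adjusted p = 0.00131), the only one of 16 measured antioxidant genes called, and the groups did not overlap. Fkbp5, a chaperone of steroid receptors that is itself induced by glucocorticoids and androgens, read 8.39, 8.35 and 8.26 in XX females, against 8.80, 8.71 and 8.82 in XY-sry males (-0.44 ± 0.057; adjusted p = 0.00301). Klf9, a steroid-induced transcription factor, was at -0.43 (adjusted p = 0.0184). Of 15 measured glucocorticoid target genes these 2 fell and Il7r rose, with a median of -0.100. With XX female replicate 3 left out neither fell, and with XX female replicate 1 left out none of the list rose. Tsc22d3 and Per1, both glucocorticoid-induced, were at -0.22 (adjusted p = 0.381) and -0.24 (adjusted p = 0.316). Of 7 sex steroid receptors and responsive genes only Fkbp5 fell, with a median of -0.113, and none did with XX female replicate 3 left out. The remaining genes with small p on this side were Rbms3, an RNA-binding protein (-0.61; adjusted p = 0.00115), Abca8a, a transporter (-0.76; adjusted p = 0.00158), Cyb5r3, a cytochrome b5 reductase (-0.44; adjusted p = 0.00436), the Notch ligand Jag2 (-0.42; adjusted p = 0.00736) and the receptor phosphatase Ptprf (-0.32; adjusted p = 0.00755).

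Parathyroid tissue can sit in or beside the thymus. The hormone gene Pth read 5.50, 5.17 and 6.01 in XX females, against 7.37, 6.37 and 6.44 in XY-sry males (-1.17 ± 0.252; limma adjusted p = 0.0461). Chga, a secretory granule protein, was at -0.74 ± 0.165 (adjusted p = 0.0497). Both were the only measured genes of the parathyroid and thyroid list, and neither passed with the 6 arrays alone. Whether parathyroid tissue was taken along in different amounts was not tested.

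**Figure D4:**
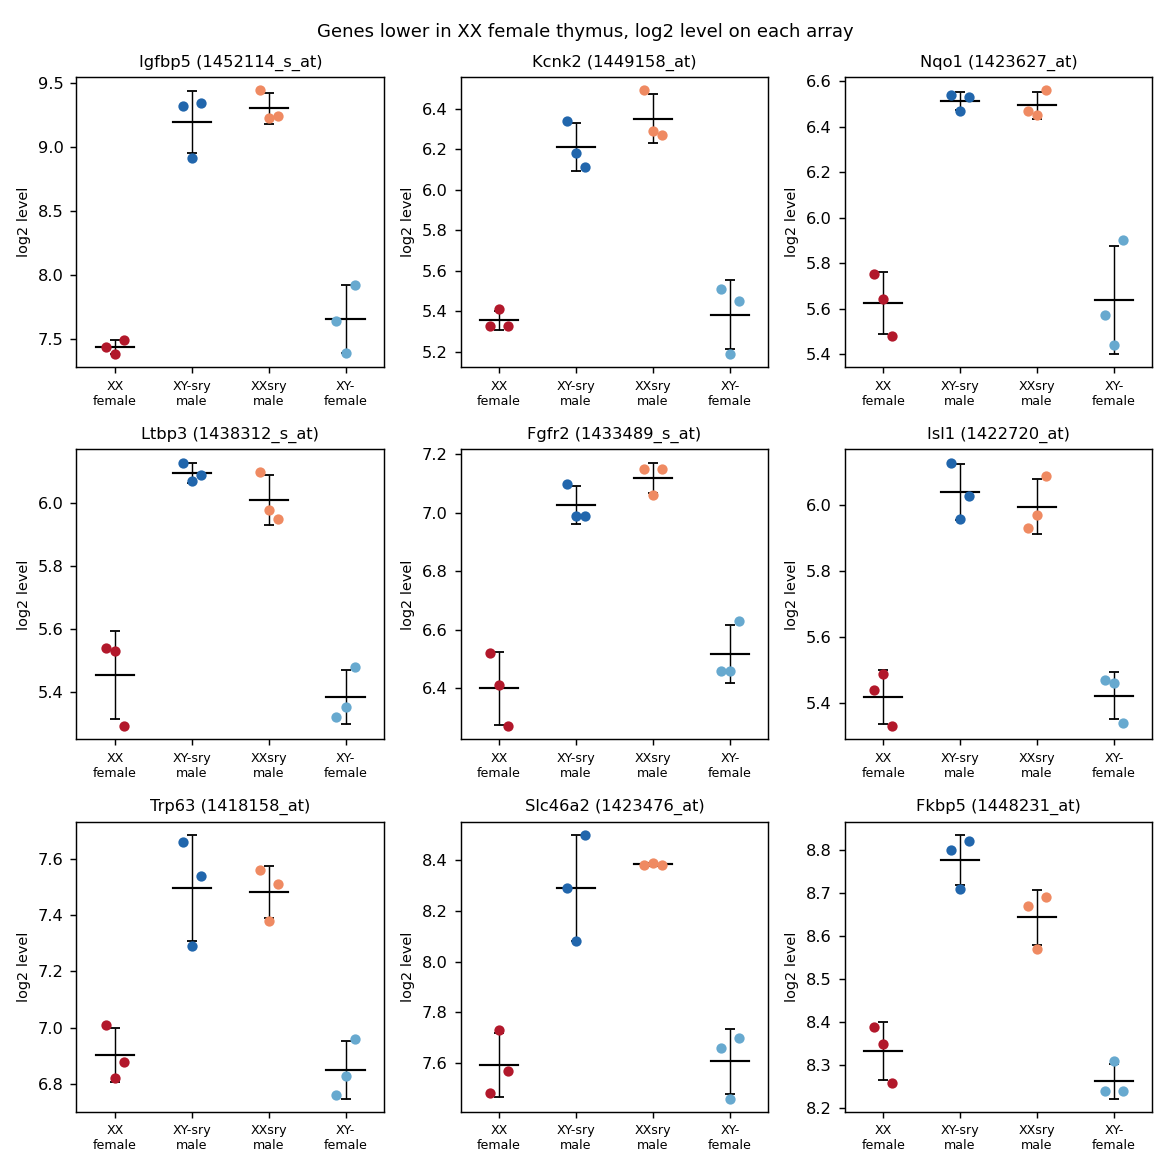
Log2 level on each array (y axis) for 9 genes lower in XX female thymus, in the 4 groups (x axis), with points for arrays, a line for the mean and bars for the SD of 3 arrays. In each panel the XX female arrays lie below all XY-sry male arrays, and the XXsry male arrays lie above all XY- female arrays. The 9 genes shown were called in both comparisons, so the lack of overlap adds nothing to the calls.

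Several lists had nearly all differences on 1 side with no member called. Over all genes tested 44.3% of the differences were positive and 55.3% negative. All 25 measured DNA replication genes had a negative difference in XX females, with a median of -0.157, beside -0.013 over all genes tested. Mcm7, a subunit of the replicative helicase, was at -0.16 and the sliding clamp Pcna at -0.08 (limma adjusted p = 0.175 and 0.498). Of 20 mitosis genes 19 had one, with a median of -0.197, and the proliferation marker Mki67 was at -0.27 (adjusted p = 0.111). In the XXsry male minus XY- female comparison the medians were 0.197 for replication and 0.047 for mitosis. By its probe set of highest mean no dendritic cell or macrophage gene passed, and by any probe set Fgr did. All 17 measured dendritic cell and macrophage genes had a positive difference, with a median of 0.197 and a mean level of 7.82 to 7.93 on the XX female arrays against 7.63 to 7.72 on the XY-sry male arrays, and Lyz2, lysozyme, was at 0.25 (adjusted p = 0.248). All 7 neutrophil genes had a positive difference, with a median of 0.713, but their mean level spanned 6.03 to 6.80 on the XX female arrays and 5.28 to 6.28 on the XY-sry male arrays. S100a8, a neutrophil granule protein, was at 0.89 (adjusted p = 0.443). These ranges overlap, and no neutrophil gene passed. The neutrophil median was 0.333 with XY-sry male replicate 3 left out and 0.457 with XX female replicate 1 left out, and at most 0.967 with another array left out. Immediate early genes had a median of 0.135 with 20 of 22 differences positive and Egr1 at 0.18 (adjusted p = 0.183). Leaving out XY- female replicate 2 gave 4 immediate early genes called higher, the actin covariate 2 and the 6 arrays alone 1. Leaving out XY- female replicate 3 gave 3 mitosis genes called lower.

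Chromatin and housekeeping lists had no member called. Heterochromatin and DNA methylation genes had a median of -0.073 over 26 genes, 21 of them negative, against 5246 of 9495 genes tested. Their mean level was 8.13 to 8.22 on the XX female arrays and 8.24 to 8.29 on the XY-sry male arrays, ranges that do not overlap. That held for many other lists too, those of clock and imprinted genes among them, so it is not particular to this list. The medians were -0.050 for 20 Polycomb genes and 0.020 for 27 splicing genes. Trim28, a corepressor that recruits heterochromatin, was at -0.14 (limma adjusted p = 0.278), and Ezh2, the Polycomb methyltransferase, at -0.09 (adjusted p = 0.451). Heat shock genes had a median of -0.038, cholesterol synthesis genes -0.037 and imprinted genes -0.047, again with none called. Clock genes had a median of -0.153, fat genes 0.243 and endothelial genes 0.010, none called. Of 13 X-linked immune genes only Cxcr3 was called, and the median was 0.047.

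**Figure D5:**
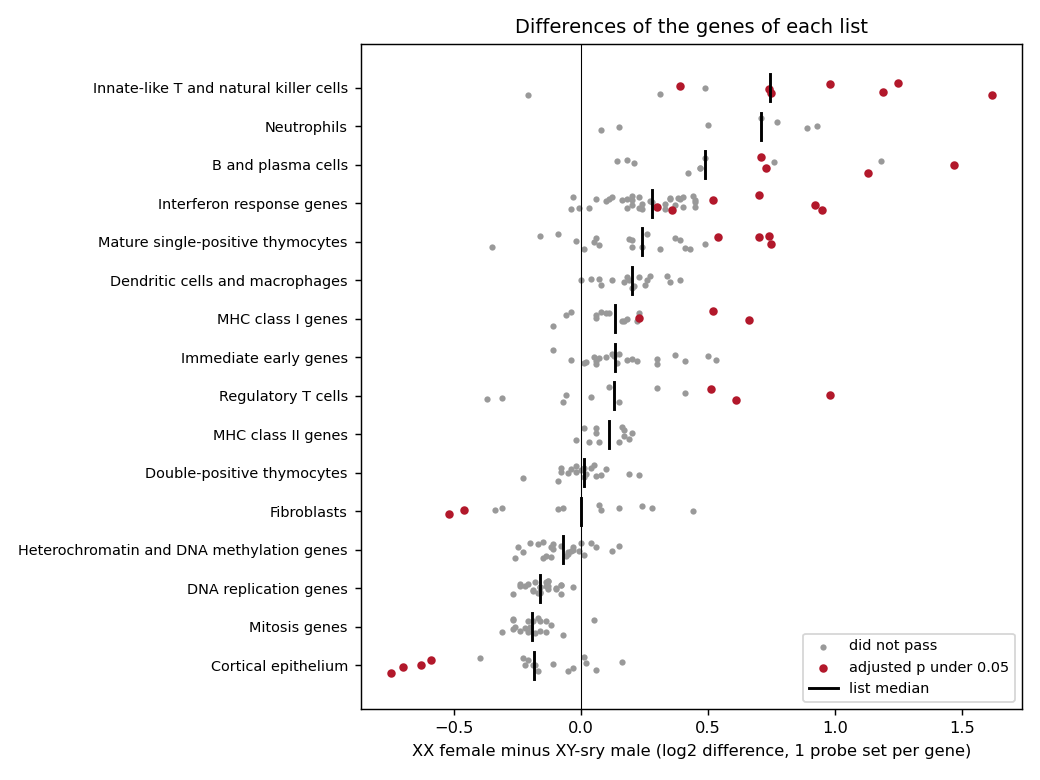
Log2 difference XX female minus XY-sry male of the measured members of selected gene lists (points, red where the adjusted p was under 0.05). The list's median is a vertical bar and the thin line marks 0. The lists were not selected by size. Splicing genes (27 measured, median 0.020) and Polycomb genes (20 measured, median -0.050) are among those not plotted. Lists of innate-like T and natural killer cells (median 0.745), neutrophils (0.713) and B and plasma cells (0.487) have the highest medians of those plotted, and no neutrophil gene was called.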

How the data were processed

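RNA of whole thymus had been run on 12 Affymetrix mouse arrays of 1 colour, from 10 µg of RNA per the labels' protocols. The authors deposited log2 levels of probe sets; RMA is the tool named in the submitters' processing notes, and its version is not stated in the sources used here. RMA gives no detection call, so a difference against a group near the bottom of the range may be only a bound. Some of these are printed as bounds and others as the fitted estimate. Of 45101 probe sets, 64 controls were left out. GEO's platform table gave 34945 probe sets 1 symbol, 932 several and 9160 none, and RefSeq (GRCm38.p6) placed 34741 of the 34945. Groups came from the titles.

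Probe sets with a mean log2 of at least 5 over the 6 arrays entered a limma 3.58.1 fit under R 4.3.3 (4 group means, 12 arrays, 8 residual and 3.784 prior degrees of freedom, Benjamini-Hochberg adjusted p under 0.05). The fit was tested on simulated data. For each list gene, 1 probe set was used, that of highest mean. The members and lists were chosen with earlier results of these data known.

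Genes were named by a rule: the 15 with the smallest p in each direction, all X and Y partner genes, and in each other list up to 4 members past the threshold, or the 2 with the highest mean where none passed. A name outside the rule is said to be chosen with its value known, or stands with its list's counts. Alternatives were other filters and normalizations, array weights, an intensity trend, the actin 3′ minus 5′ covariate, fewer arrays and a replicate block; counts per list and shared calls under them were added after the data were seen. Tables and figures were made with Python 3.11.15, pandas 2.3.3 and matplotlib 3.10.9.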

Additional observations from a re-analysis of the deposited data

Results flagged for a closer look

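Among the genes named by rule, for 3 the size of the complement difference was not the same in females and in males, by the interaction term of the 4-group limma fit (the complement effect of the females less the males' one, 3 arrays in each group). Of all 267 called probe sets, 16 had an adjusted p under 0.05 for this term. H2-T24, the non-classical class I gene, gave -0.55 ± 0.085 (adjusted p = 0.0256). Its XX females read 6.23, 6.22 and 6.32, against 6.42, 6.37 and 6.50 in XY- females, and its XXsry males read 6.05, 5.88 and 6.01, against 5.57, 5.64 and 5.59 in XY-sry males. Id2, the inhibitor of E proteins, gave -0.51 (adjusted p = 0.0281). It read 8.03, 7.97 and 7.99 in XX females, against 8.14, 8.12 and 8.27 in XY- females, and 7.75, 7.60 and 7.65 in XXsry males, against 7.38, 7.25 and 7.37 in XY-sry males. Cd44, the adhesion receptor, gave -0.68 with probe set 1452483_a_at (adjusted p = 0.0432), and 2 others of its probe sets, 1423760_at and 1434376_at, did not pass (adjusted p = 0.424 and 0.808). In XXsry males it read 5.63, 5.50 and 5.67, against 4.91, 5.03 and 5.18 in XY-sry males, while XX females (5.87, 6.05 and 5.79) and XY- females (5.84, 6.14 and 6.09) overlapped. For all 3 genes the XY-sry male arrays were the lowest of the 12.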

How the results depend on the processing

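Of 59 named genes that were called, none changed sign in the 25 alternatives, and 37 were called in every alternative that tested them. The count of 267 called probe sets was 1149 with array weights (593 higher, 556 lower), 172 without a filter (88 higher) and 122 with a log2 difference of at least 0.5 as well (79 higher, 43 lower). Leaving out 1 array gave 72 to 633 (45 to 330 higher, 27 to 303 lower). The labels do not say whether equal replicate numbers pair the arrays, and this was not tested. Between XX female and XY-sry male arrays of equal number the correlations of deviations were 0.0395, 0.186 and 0.00301. Of these 6 arrays 3 correlated best with their own number. A replicate block gave 278 calls, 214 of them among the 267. The 178 of XXsry male minus XY- female were 32 with those 6 arrays alone. Called in both with the same sign were 15, 6 with 1 probe set per gene, 24 with array weights, 0 among autosomal probe sets alone and 11 to 17 when 1 array was left out. The 73 with opposite signs were 525 with array weights, 111 with an intensity trend and 31 to 105 when 1 array was left out. The cause of these shifts was not tested. With all probe sets of a gene averaged, the median was 0.094 for X and Y partner genes, 0.143 for medullary epithelium, 0.000 for Polycomb, -0.006 for splicing and -0.133 for clock genes. Without a filter it was 0.570 for innate-like T and natural killer cells, 0.170 for neutrophils, 0.143 for medullary epithelium and -0.130 for clock genes. With 1 array left out, medians spanned 0.073 to 0.151 for X escape genes, 0.066 to 0.130 for MHC class II, 0.710 to 0.775 for innate-like T and natural killer cells, 0.081 to 0.216 for regulatory T cells and 0.465 to 0.587 for B and plasma cells, with 0.333 to 0.967 for neutrophils. They spanned -0.235 to -0.120 for cortical and 0.131 to 0.172 for medullary epithelium, -0.195 to -0.060 for sex steroid and -0.137 to -0.047 for glucocorticoid genes. They spanned 0.098 to 0.189 for immediate early, -0.045 to 0.013 for Polycomb, -0.195 to -0.127 for clock and -0.026 to 0.082 for potassium channel genes. With 3 arrays in each group the precision is limited: the 95% interval lay within 0.5 for 92.5% of autosomal probe sets.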

Other observations

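The genes given here were chosen after their values were seen and because they were called, so they add no support to any list. Interferon-inducible genes outside the list that were higher in XX female than in XY-sry male thymus included Ifi213 (0.80), Ddx60 (0.83), Gbp6 (0.52), Cxcl11 (0.53), a further Cxcr3 ligand, and the RNA editing enzyme Adar (0.50), with limma adjusted p of 0.0112, 0.0279, 0.00942, 0.0492 and 0.014. In XXsry male minus XY- female thymus the same 5 genes differed by -0.75, -0.52, -0.41, -0.49 and -0.12. Ctsw, a cathepsin of cytotoxic lymphocytes, was higher by 0.62, and the costimulatory receptor Cd28 by 0.45 (adjusted p = 0.00736 and 0.0103). Irf4, a transcription factor of activated lymphocytes and plasma cells, was higher by 0.64, and Txndc5, an endoplasmic reticulum disulfide isomerase, by 0.67 (adjusted p = 0.0244 and 0.0165).

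Among genes lower in XX female than in XY-sry male thymus were the gastrin-releasing peptide gene Grp (-1.07; limma adjusted p = 0.0151), the transcription factors Nfib (-0.72; adjusted p = 0.0151) and Nfia (-0.56; adjusted p = 0.0229), and the keratin Krt7 (-0.56; adjusted p = 0.0469). Other genes lower in XX females were Foxm1 (-0.35), Cdca2 (-0.38), Rad51ap1 (-0.52), Prim2 (-0.26) and Mcm9 (-0.32), with adjusted p of 0.0417, 0.0422, 0.0141, 0.0401 and 0.0474. In XXsry male minus XY- female thymus these 5 differed by 0.25, 0.09, 0.18, 0.14 and 0.01.

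The largest differences toward XX females among called probe sets that do not name a single gene were 1.79 (1428720_s_at), 1.50 (1425436_x_at) and 1.47 (1428719_at), with limma adjusted p of 0.00971, 0.000935 and 0.0492. Probe set 1428720_s_at read 10.38, 9.31 and 10.35 in XX females, against 8.29, 8.02 and 8.37 in XY-sry males. In XXsry male minus XY- female thymus the 3 probe sets differed by -0.48, -1.47 and -0.61.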
